A study of Sus scrofa with 48 samples.

Results

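COIL codes for coilin, the scaffold protein of Cajal bodies, and its transcript was followed here through 3 tissues of F2 pigs, namely the gluteus muscle (GM), the liver and the kidney. Of the 43603 probes on the array that are not controls, 1 is COIL's, A_72_P218187. It carries a pig Ensembl transcript as its identifier, and its gene name comes from the annotation by human orthologue in the study's lists of probes that differ between the lines, in all 3 of which it stands. COIL was therefore chosen by the ratio of the lines that these arrays gave, so that ratio is described below without a test. Sex, number series and tissue took no part in the choice and were tested. The relation between tissues within a line was tested too, but in F2 C it is not independent of the choice. There it rested on pigs that also widened the ratio of the lines.

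Cajal bodies are small compartments of the nucleus in which coilin gathers. Small nuclear ribonucleoproteins of the spliceosome pass through them as they mature, and guide RNAs that direct RNA modification and telomerase RNA are also found there. Coilin is known to bind the SMN protein and Sm proteins. Cajal bodies are best known from dividing cells and from cells with a high demand for splicing, and many differentiated cells have few.

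The 48 arrays held RNA of 16 F2 pigs in each of the 3 tissues. F2 C pigs descended through F1 boars from F0 boars on a standard diet, and F2 E offspring from F0 boars whose standard diet was supplemented with methylating micronutrients. The F1 boars and all the F2 pigs themselves received the standard diet alone. Each line had 8 Swiss Large White pigs, 4 barrows (castrated males) and 4 females, slaughtered at a like body weight. Pigs are named as in the labels, with m for a barrow and f for a female. Their numbers form a lower series, from m_2875 to f_2899, and an upper series, from m_2943 to f_2969, with 4 pigs of each line in each. The study bred the F2 pigs from few F1 boars, and the fathers and litters of these 16 pigs are not given, so pigs of a line may share parents.

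The arrays are of a 1-colour Agilent porcine design. Median pixel intensities were quantile-normalized among the 16 arrays of each tissue and log2-transformed, so that 1 unit is a doubling. Probes of muscle, liver and kidney marker genes were higher in their own tissue than on any array of the others for 5 of 5 probes of GM, 7 of 7 of liver and 2 of 2 of kidney. The COIL spot was well above background on all 48 arrays and was marked as an outlier on none. Its local background was marked as an outlier on the liver array of F2 C pig f_2886. The kidney arrays of F2 E pigs m_2890 and f_2897 were dim. Their 75th percentiles of the spot intensity were 212 and 231, against 703 to 1762 on the other kidney arrays. In GM and kidney each of the 4 slides held arrays of 1 line and 1 number series, so there slide cannot be told apart from line by series. In liver 2 slides held 1 line each, and the other 2 held both lines of the lower numbers. Fewer cells with the transcript and less transcript per cell cannot be told apart in these whole-tissue RNA samples.

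In GM, COIL of the F2 C pigs of the lower numbers had a log2 signal of 10.59 in pig m_2875, 7.93 in pig m_2878, 7.49 in pig f_2884 and 9.80 in pig f_2886. The F2 C pigs of the upper numbers lay close together, at 9.39 in pig m_2961, 9.44 in pig m_2962, 9.49 in pig f_2968 and 9.05 in pig f_2969. The 8 F2 E pigs ranged from 10.11 to 10.86 with a median of 10.39. Pigs m_2878 and f_2884 were thus far below every other pig, and pig m_2875 was the one F2 C pig within the range of F2 E.

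In liver the same pigs, m_2878 and f_2884, were the lowest. COIL had a log2 signal of 10.19 in pig m_2875, 7.59 in pig m_2878, 7.79 in pig f_2884 and 9.77 in pig f_2886. The remaining F2 C pigs lay close together, from 9.49 in pig m_2962 to 9.71 in pig f_2969. The F2 E livers ranged from 9.96 to 11.02 with a median of 10.39. Again 7 of the 8 F2 C pigs were below every F2 E pig, with pig m_2875 the exception.

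In kidney, COIL had a log2 signal of 10.15 in pig m_2875, 7.64 in pig m_2878, 7.75 in pig f_2884 and 10.15 in pig f_2886. Pigs m_2961, m_2962, f_2968 and f_2969 were at 9.33, 9.42, 10.30 and 9.37. The F2 E kidneys ranged from 9.91 to 11.93 with a median of 10.39, and the lines overlapped more than in the other tissues, with 5 of 8 F2 C pigs below every F2 E pig. The top of the F2 E range, 11.93 in pig m_2890 and 11.69 in pig f_2897, came from the 2 dim arrays. Without them the F2 E kidneys ended at 10.56.

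**Figure D1:**
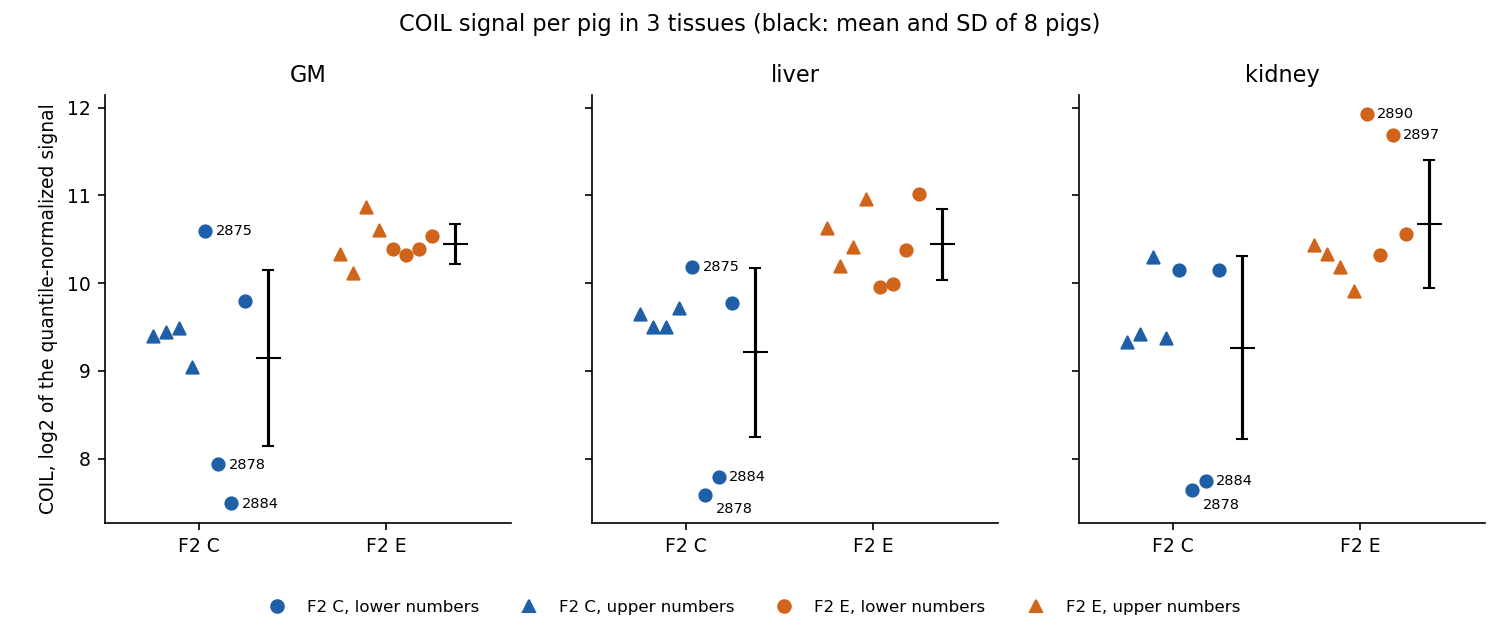
COIL in GM, liver and kidney. The vertical axis is the log2 of the quantile-normalized signal, points are single pigs (circles for the lower, triangles for the upper pig numbers), and the black marks give the mean and SD of the 8 pigs of a line. Pigs m_2878 and f_2884 of F2 C lie below 8 in every tissue, and no other pig lies below 9.

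The ratio of the means of F2 E over F2 C was 1.30 for GM, 1.23 for liver and 1.41 for kidney on the log2 scale, or 2.46-fold, 2.34-fold and 2.66-fold. Group means in GM were 9.15 ± 1.00 for F2 C and 10.44 ± 0.23 for F2 E (SD, n = 8 each). They were 9.21 ± 0.97 and 10.44 ± 0.40 in liver. In kidney they were 9.26 ± 1.04 and 10.67 ± 0.73. As this contrast chose the gene, the values carry no test. Over all probes tested, limma called 0.769% for GM, 0.0937% for liver and 0.0119% for kidney between the lines at an adjusted p below 0.05.

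Pigs m_2878 and f_2884 contributed much of this ratio. They are a barrow and a female, and their mean lay 3.77-fold below that of the other 6 F2 C pigs for GM, 4.08-fold for liver and 4.27-fold for kidney. Without them the log2 ratio of the lines was 0.82 for GM, 0.72 for liver and 0.89 for kidney, and the medians of all 8 pigs a line differed by 0.97, 0.82 and 0.99. In kidney the ratio was 1.03 without the 2 dim arrays and 0.51 without these arrays and both low pigs. The remaining kidneys had an SD of 0.46 in F2 C and 0.23 in F2 E (n = 6 each). Within the liver slides that held both lines, the ratio was 1.08 on slide 1 and 1.92 on slide 2, with 2 pigs of each line on each, 1 of them a low pig.

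The low values also stood out in the unscaled signal. Before normalization, the COIL spot had a median pixel of 154 in pig m_2878 and 187 in pig f_2884 in GM, where the other F2 C pigs had from 602 to 1416. The liver spots had 276 and 258.5, against 645 to 1348 in the other F2 C pigs. The kidney spots had 170 and 185.5, against 752 to 1422. The arrays of the 2 pigs ranged from dim to bright. In GM their 75th percentiles were 224 and 385, beside 334 to 491 on the other F2 C arrays, so that pig m_2878 had the dimmest array of F2 C. F2 E pig f_2949 had a COIL intensity of 814 on a GM array whose 75th percentile was 180. In liver they were 1112 and 736, beside at most 1109 on the other liver arrays, so that pig m_2878 had the brightest. In kidney they were 886 and 822, inside the range of 703 to 1444 of the other F2 C arrays. Both pigs were on slide 1 in GM and in kidney, and on slides 1 and 2 in liver. The part of slide and brightness in the low values was not tested.

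The step between these 2 pigs and all 14 others was wider for COIL than for other probes scored on the same 2 pigs. The gap between the higher of the 2 pigs and the lowest of the other pigs was 1.11 for GM, 1.70 for liver and 1.58 for kidney on the log2 scale. Of 25281 probes present in GM with a value on every array, 134 others had the 2 pigs below all the rest, and none of them had a gap as wide as COIL. In liver 223 others of 28279 probes did so, and in kidney 260 of 33504, again none with a gap as wide. These 2 pigs were singled out after their COIL values were seen, so the counts are a description. Other probes were not scored on their own 2 lowest pigs, so how common such a step is on the array was not measured. The array holds a single COIL probe, so whether the rest of the transcript is low in these pigs was not measured.

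**Figure D2:**
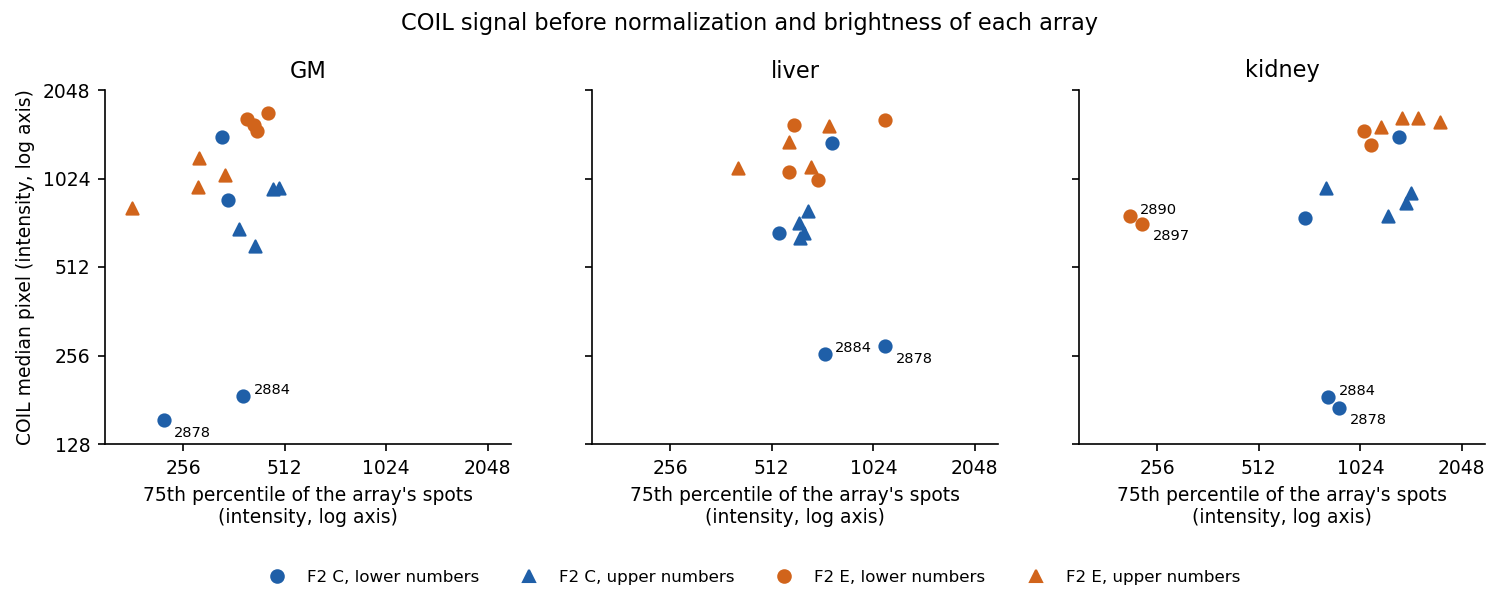
COIL before normalization. The vertical axis is the median pixel intensity of the COIL spot and the horizontal axis the 75th percentile of all spots on the same array, both on log axes, with 1 point per array. The arrays of pigs m_2878 and f_2884 lie between 154 and 276 in all 3 tissues, on arrays with 75th percentiles from 224 to 1112, and the 2 dim kidney arrays stand to the left of the others at COIL intensities of 765 and 718.

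The spread of COIL was split into a part between pigs and a part within pigs for each line. Over the 3 tissues, the mean of a pig had an SD of 0.98 among F2 C pigs and of 0.23 among F2 E pigs on the log2 scale. Within a pig, after the tissue means were subtracted, the SD over the tissues was 0.27 in F2 C and 0.54 in F2 E. Without the 2 low pigs of F2 C and the 2 pigs of F2 E with dim kidney arrays, these SDs within a pig were close, at 0.29 and 0.30, and those between pigs were 0.36 and 0.19. The difference between the lines in these spreads was not tested. An F2 C pig kept much the same distance from the tissue mean in its 3 tissues, and 93.0% of the variance within F2 C lay between pigs. Without pigs m_2878 and f_2884 that share was 54.4%. In F2 E the mean square between pigs, 0.162, was below that within pigs, 0.293, and without the 2 pigs with dim kidney arrays both were close, at 0.109 and 0.0919.

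The same question was put as a correlation between tissues, within each line. In F2 C, Pearson's r was 0.94 for GM and liver (exact permutation p = 0.00392, adjusted over the 6 relations 0.0118), 0.92 for GM and kidney (p = 0.00377, adjusted 0.0118) and 0.93 for liver and kidney (p = 0.00985, adjusted 0.0197, n = 8 pigs). Spearman's rho was 0.76 (exact permutation p = 0.0368, adjusted 0.110), 0.88 (p = 0.00724, adjusted 0.0435) and 0.64 (p = 0.0962, adjusted 0.192) for the same pairs. The relation rested on the 2 low pigs, which are the farthest from the median in each case. Their low values also raised the ratio of the lines that chose COIL, so these p-values are not independent of the choice. Without the 2 low pigs r was 0.82 (exact permutation p = 0.0778), 0.63 (p = 0.188) and 0.34 (p = 0.607), each with n = 6.

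In F2 E no pair of tissues passed the test. Pearson's r was 0.43 for GM and liver (exact permutation p = 0.291, adjusted 0.349), -0.24 for GM and kidney (p = 0.551, adjusted 0.551) and -0.44 for liver and kidney (p = 0.264, adjusted 0.349, n = 8). Spearman's rho was 0.50 (exact permutation p = 0.216), -0.24 (p = 0.582) and -0.31 (p = 0.462). Leaving out the 2 pigs farthest from the median of the first tissue gave r of 0.76 (exact permutation p = 0.103), -0.36 (p = 0.467) and -0.30 (p = 0.518). The dim kidney arrays of pigs m_2890 and f_2897 stayed in all the values with kidney. Without normalization r in F2 E was -0.24, -0.68 and 0.55 (exact permutation, adjusted p = 0.544, 0.0940 and 0.247). With normalization, over all 16 pigs after subtraction of the line means, r was 0.88, 0.71 and 0.61, values that again hold the 2 low pigs.

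**Figure D3:**
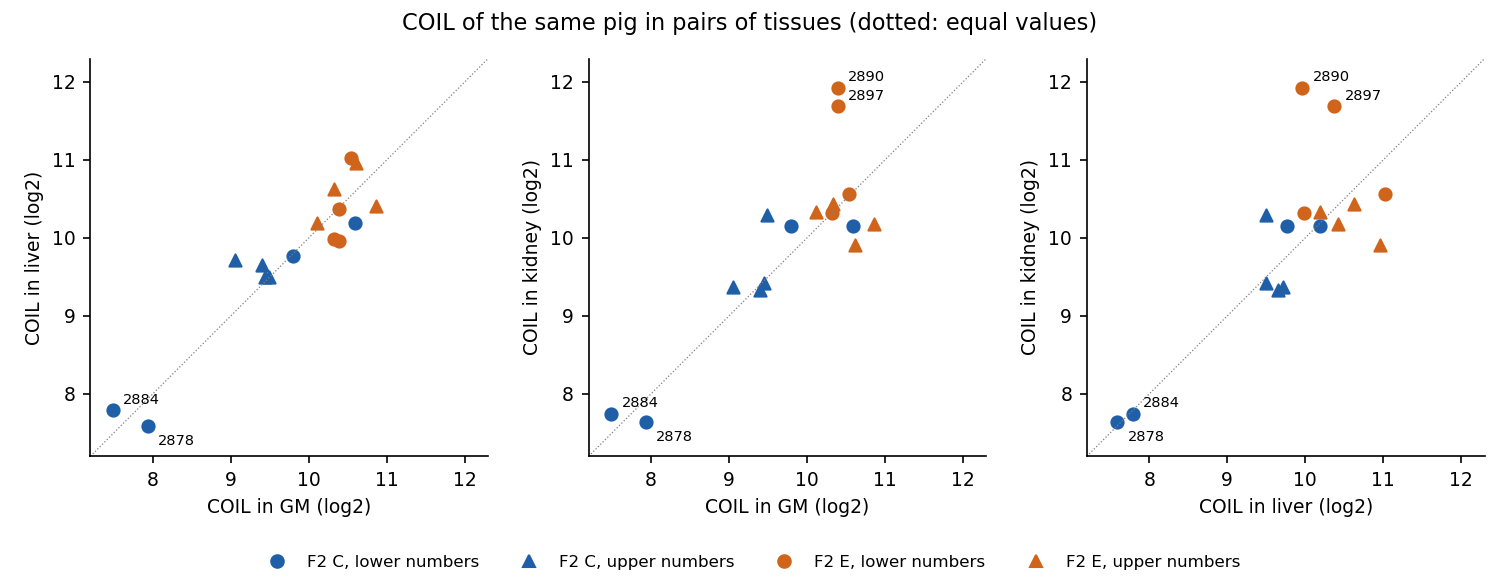
COIL of the same pig in pairs of tissues. Both axes are log2 of the quantile-normalized signal, points are pigs, and the dotted line marks equal values. Pigs m_2878 and f_2884 lie alone near 8 in all 3 panels, the other F2 C pigs lie between 9 and 11, and the F2 E pigs with dim kidney arrays, m_2890 and f_2897, stand above the rest in kidney alone.

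COIL did not differ by sex beyond the spread of the pigs in any tissue. In GM the 8 barrows had a mean of 9.81 ± 0.88 and the 8 females of 9.78 ± 1.11 (SD). With line in the model, females over barrows had a log2 difference of -0.04 in GM (95% interval -0.73 to 0.66, limma adjusted p = 0.998, exact permutation p = 0.931). It was 0.23 in liver (-0.47 to 0.94, limma adjusted p = 0.785, exact permutation p = 0.506). In kidney it was 0.04 (-0.85 to 0.94, limma adjusted p = 1.00, exact permutation p = 0.922). These intervals are wide and do not show that the sexes are alike. Of all probes, limma called 0.121% for GM, 0.121% for liver and 0.0921% for kidney between the sexes.

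Within F2 E the females had a mean of 10.60 ± 0.20 and the barrows of 10.29 ± 0.12 in GM, and 10.69 ± 0.35 and 10.19 ± 0.31 in liver (SD, n = 4 each). In kidney the order was the other way, at 10.59 ± 0.78 in females and 10.76 ± 0.78 in barrows, each with a dim array. Whether the ratio of the lines differs with sex was tested as an interaction. It was 0.70 for GM (limma adjusted p = 0.992), 0.54 for liver (adjusted p = 1.00) and -0.43 for kidney (adjusted p = 0.926). Limma called 0% of the probes in each of the 3 tissues for that term, with 890, 506 and 884 probes at an unadjusted p below 0.05.

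The number series did not separate COIL either. Lower over upper numbers had a log2 difference of -0.23 in GM (95% interval -0.92 to 0.46, limma adjusted p = 0.757, exact permutation p = 0.529). In liver it was -0.48 (-1.16 to 0.19, limma adjusted p = 0.445, exact permutation p = 0.241). In kidney it was 0.11 (-0.77 to 1.00, limma adjusted p = 0.887, exact permutation p = 0.797). Of all probes, limma called 3.81%, 3.05% and 0.11% in GM, liver and kidney between the series. The spreads behind these means were unlike, as the F2 C pigs of the lower numbers had an SD of 1.48 in GM and those of the upper numbers of 0.20.

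The ratio of the lines was larger among the lower numbers. It was 1.46 there and 1.13 among the upper numbers for GM, 1.50 and 0.96 for liver, and 2.20 and 0.61 for kidney on the log2 scale. All 4 F2 C pigs of the upper numbers lay below all 4 F2 E pigs of that series in GM, at 9.05 to 9.49 against 10.11 to 10.86. The same held in liver, at 9.49 to 9.71 against 10.19 to 10.96, while in kidney pig f_2968 at 10.30 lay within the F2 E values of 9.91 to 10.44. The difference of these ratios, the interaction of line and series, was 0.32 for GM (limma adjusted p = 0.806), 0.54 for liver (adjusted p = 0.961) and 1.59 for kidney (95% interval -0.04 to 3.22, adjusted p = 0.313). Limma called 7.04%, 0.104% and 3.5% of all probes for that term. Both low pigs and both dim kidney arrays belong to the lower numbers. Without the 2 low pigs the interaction was -0.92, -0.60 and 0.36, and without the dim arrays it was 0.91 in kidney, none of them past the test.

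**Figure D4:**
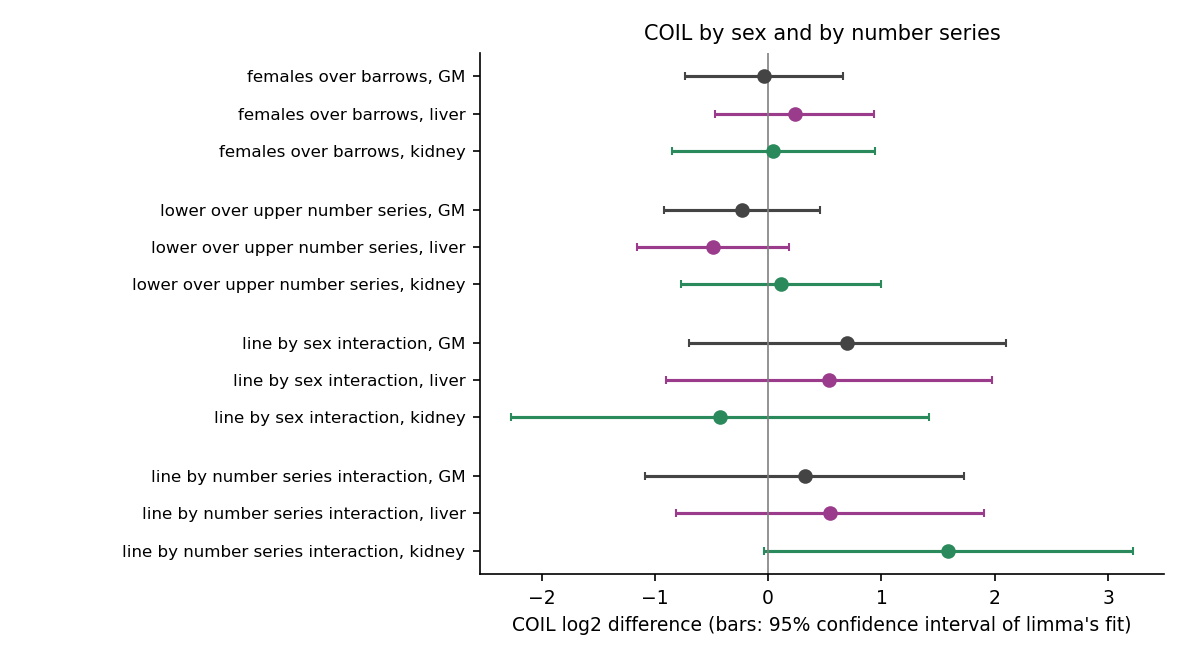
COIL by sex and number series. The horizontal axis is the log2 difference named on the left for each tissue, with the 95% confidence interval of limma's fit as bars. All 12 intervals include 0, and the widest lie in kidney, where the interaction of line and number series reaches from -0.04 to 3.22.

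**Figure D5:**
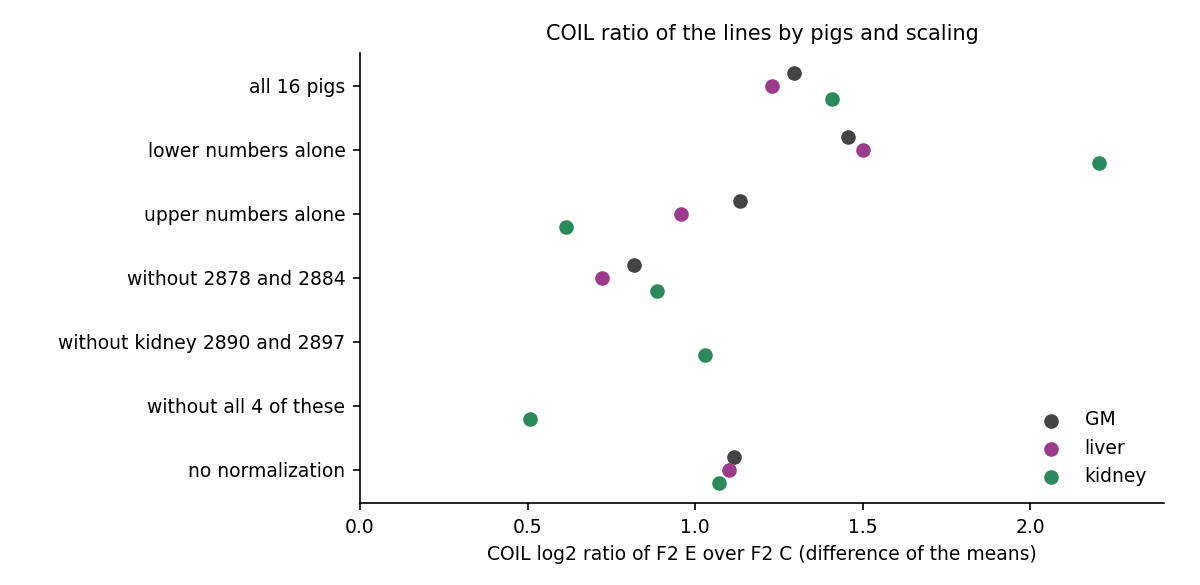
COIL ratio of the lines, F2 E over F2 C, on the log2 scale by the pigs used and the scaling. Points are differences of the means on the horizontal axis, coloured by tissue. Leaving out pigs m_2878 and f_2884 lowers all 3 ratios to between 0.72 and 0.89, and the kidney ratio ranges from 0.51 to 2.20 over the rows.

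For the order of the tissues, all 48 arrays were quantile-normalized together. COIL then had a mean log2 signal of 10.68 ± 0.94 for GM, 9.84 ± 0.96 for liver and 9.40 ± 1.11 for kidney (SD, n = 16 pigs). By line the order was GM of F2 E at 11.30 ± 0.21, liver of F2 E at 10.45 ± 0.40, kidney of F2 E at 10.10 ± 0.75, GM of F2 C at 10.07 ± 0.99, liver of F2 C at 9.23 ± 0.98 and kidney of F2 C at 8.71 ± 0.99 (SD, n = 8). Kidney of F2 E and GM of F2 C differ by less than their spread, and so do liver and kidney within each line. With the pig as a block, liver was 0.85 below GM (log2 difference -0.85, limma adjusted p = 1.9e-06, exact sign-flip permutation p = 3.05e-05, the smallest possible), with 0 of 16 pigs higher in liver. Kidney over GM was -1.28 (limma adjusted p = 3.13e-10, exact permutation p = 9.16e-05), with 1 pig, m_2890, higher in kidney. Kidney over liver was -0.43 (limma adjusted p = 0.00675, exact permutation p = 0.0326), with 3 pigs, m_2890, f_2897 and f_2968, higher in kidney. Pigs m_2890 and f_2897 are those with dim kidney arrays. Without them kidney over GM was -1.47 and kidney over liver -0.65 (limma adjusted p = 2.81e-14 and 1.71e-06).

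This order held under both scalings to the 75th percentile and was not seen without normalization. With the median signal so scaled, liver over GM was -0.90, kidney over GM -1.36 and kidney over liver -0.46. With the processed signal so scaled they were -1.01, -1.31 and -0.29, the last not called (limma adjusted p = 0.0670). Without normalization, COIL differed by 0.028 for liver over GM, 0.045 for kidney over GM and 0.017 for kidney over liver, while the median probe was 0.68, 0.80 and 0.10 brighter in the first-named tissue. The COIL spot was thus of like brightness in the 3 tissues, and lower in liver and kidney relative to the other probes of those arrays. Such differences are common on these arrays, where limma called 70.9%, 75.4% and 70.3% of the probes for the 3 pairs.

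Partners of coilin were looked up among a list of 58 genes of Cajal bodies, small nuclear ribonucleoproteins and histone locus bodies. Only 5 of them had a probe with a RefSeq gene name, with 6 probes in all, so the list says little about Cajal bodies as a whole. These are SART3, which recycles spliceosomal ribonucleoproteins, the Sm protein gene SNRPE, the U1 and U2 protein genes SNRPA and SNRPB2, and PRMT5, which methylates Sm proteins. Limma called 0 of the 6 probes between the lines in every tissue, with 1 at an unadjusted p below 0.05 in GM and none in liver or kidney. SNRPE in GM was that probe, with a log2 ratio of 0.37 ± 0.15 (SE, adjusted p = 0.236). Of all probes tested limma called 0.769% in GM, 0.0937% in liver and 0.0119% in kidney, so 0 calls among 6 is near that share. At an unadjusted p below 0.05 were 4136 of 25625, 2389 of 28823 and 1310 of 33664 of all probes. The log2 ratios lay between -0.11 and 0.37 for GM, between -0.27 and 0.19 for liver and between -0.07 and 0.13 for kidney. Their median was 0.02, -0.06 and -0.01 in the 3 tissues, beside -0.02, -0.02 and -0.01 over all probes tested. The difference of pigs m_2878 and f_2884 from the other F2 C pigs went in both directions over the 6 probes. In GM it reached from -0.39 for a probe of SNRPB2 to 0.13 for SNRPE, in liver from -0.25 for the other SNRPB2 probe to 0.28 for PRMT5, and in kidney from -0.33 for the first SNRPB2 probe to 0.25 for SNRPE.

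Genes near COIL on the chromosome were taken from the RefSeq gene table, the 10 nearest with a named probe on each side. The nearest are MMD, 9 coding genes before COIL, and SRSF1, a splicing factor gene 8 coding genes after it, and the farthest lie over 100 coding genes away. MMD had a log2 ratio of the lines of 0.09 ± 0.25 for GM, 0.45 ± 0.20 for liver and -0.15 ± 0.32 for kidney (SE, limma adjusted p = 0.894, 0.549 and 1.00). The brighter SRSF1 probe had ratios of 0.08 ± 0.14, 0.06 ± 0.15 and -0.09 ± 0.12 (SE, limma adjusted p = 0.805, 0.938 and 1.00). The dimmer SRSF1 probe had the opposite sign in GM and liver, with -0.23 ± 0.14, -0.16 ± 0.21 and -0.32 ± 0.35 (limma adjusted p = 0.431, 0.877 and 1.00). Over all 20 genes, limma called 0 of 23 tested probes for GM, 0 of 25 for liver and 0 of 25 for kidney. Of all probes tested it called 0.769%, 0.0937% and 0.0119%, so 0 calls among so few is near that share. At an unadjusted p below 0.05 were 2, 3 and 0 of the listed probes. Over all probes 4136 of 25625, 2389 of 28823 and 1310 of 33664 were. The ratios reached from -0.50 for a probe of LGALS9 in liver to 0.65 for CSF3 in GM (limma adjusted p = 0.558 and 0.108). The median log2 ratio of the listed probes was -0.01, -0.01 and -0.07.

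No probe had a Pearson's r above 0.9 with the pattern of COIL over the pigs. Values of 23370 probes present in all 3 tissues were averaged over the tissues as deviations from the tissue mean and set against COIL over the 16 pigs. The highest Pearson's r was 0.86 for A_72_P224872, followed by 0.85 for A_72_P403863, and the fifth was 0.78. None of these 5 probes had a RefSeq gene name. Their r was picked as the highest among all probes compared, and it holds the difference of the lines, which chose COIL. After subtraction of the line means the 5 highest r ran from 0.85, for A_72_P110341, to 0.78. The deviation of A_72_P224872 was 0.31 lower in pigs m_2878 and f_2884 than in the other F2 C pigs, and that of A_72_P403863 was 0.40 lower, steps much smaller than that of COIL.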

How the data were processed

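The deposited scanner files hold intensities, 1 file per array. The authors labelled the RNA with 1 colour, hybridized it to Agilent porcine arrays and quantified the spots with Feature Extraction, version 10.5.1.1 per the file headers (the study's methods name another). The intensity used is the median pixel of a spot, not corrected for background and not normalized between arrays when deposited. The authors' tables per tissue were not used: they hold their normalized log2 signals, log2 ratios, p-values and false discovery rates, and their column numbers could not be tied to the pigs.

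Here control spots were dropped, and median pixels were quantile-normalized among the 16 arrays of each tissue and log2-transformed. Spots marked as outliers (1285 in GM, 974 in liver and 309 in kidney) were then left out and spots of a probe averaged. A probe was present where 50% or more of a line's arrays had a signal above 25 that was also well above background, and needed 2 values per line. That left 25625, 28823 and 33664 probes for the comparison of the lines in GM, liver and kidney.

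Tests were lmFit and eBayes of limma 3.58.1 in R 4.3.3, with Benjamini-Hochberg adjustment over all probes of a tissue and a threshold of 0.05. Single values of COIL were also tested by exact two-sided permutation, of sex or number series within lines (4900 arrangements), of the signs of 16 pigs, or of pairings of 8 pigs. On simulated data with the spread of the GM arrays, females over barrows were compared over 25281 probes. Of 100 probes changed by 1 log2 unit 84% were called, and of 100 changed by 2 100% were, with 7 false calls each time. These shares are for probes in general. COIL had an SE of 0.33 for that comparison, and the share for a probe with its spread was not simulated.

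Gene names came from RefSeq accessions (2628 probes, Sscrofa 11.1 gene table) and, for COIL, from the study's lists. No genome build is named in the files, so no coordinates are given. The gene and the lists were chosen with earlier results of these data known. Named genes were COIL, a Cajal body list, the nearest genes with named probes, and the 5 probes with the highest r in each of 2 measures. SRSF1 and SNRPE details, and all values without named pigs, were chosen after the values were seen. Nothing beyond the labels shows how the pigs of a line are related, so p-values measure the spread between these pigs. The number of arrays limits the precision. Replicate numbers of the labels name different pigs in the 2 lines. The deviations of same-numbered pigs correlated above 0.1 in 2, 6 and 3 of 8 pairs in GM, liver and kidney, so the numbers were not taken as pairs. Pigs were tied across tissues by the number in their labels.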

Additional observations from a re-analysis of the deposited data

How the results depend on the processing

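The direction of the COIL ratio of the lines held under every alternative run (scaling to the 75th percentile, quantile normalization over 48 arrays, normexp, no normalization, marked spots kept or removed first, sex, series or slide in the model, each pig left out). With each pig left out the ratio lay between 1.06 and 1.50 for GM, between 1.00 and 1.37 for liver and between 1.18 and 1.56 for kidney. It moved by more than the spread of the pigs in 1 case, to 0.51 in kidney without pigs m_2878, f_2884, m_2890 and f_2897. Omission of these pigs, the unnormalized signal and normexp on the median pixel were added after the data were seen. The planned normexp on the mean pixel was not run. As slides of GM and kidney held 1 line each, slide entered the fit of the lines as a random block, which does not separate slide from line there.

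A replicate block of the label numbers left the ratios of the lines at 1.30, 1.23 and 1.41 and changed no call for sex, at -0.71, 0.00 and -0.03 in GM, liver and kidney. For the number series it gave 0.88 in GM and 0.33 in kidney, neither called, and in liver the block and the series could not be separated. For the tissues, without the replicate block of pigs, kidney over liver kept its -0.43 with a limma adjusted p of 0.253. With the processed signal scaled to the 75th percentile it was -0.29 (limma adjusted p = 0.0670). Without normalization the tissue differences turned to 0.028 for liver over GM, 0.045 for kidney over GM and 0.017 for kidney over liver, none called.

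Pearson's r in F2 C passed the test for each pair of tissues under each of the 4 scalings. It failed without the 2 pigs farthest from the median, at r of 0.82, 0.63 and 0.34 (exact permutation, adjusted p = 0.308, 0.375 and 0.607). Spearman's rho in F2 C passed under none of these scalings for GM and liver or for liver and kidney. For GM and kidney it failed with the median signal scaled to the 75th percentile (exact permutation, adjusted p = 0.0643) and passed under the others. Adjusted p for sex ranged over the alternatives from 0.502 to 1.00 and for the number series from 0.275 to 0.995. By the methods' t-test at their threshold of p and fold, 41, 56 and 30 probes differed between the sexes in GM, liver and kidney, and 26, 34 and 33 had a Benjamini-Hochberg adjusted p below 0.05 at any fold. For the series the counts were 127, 106 and 132 by p and fold, and 211, 660 and 14 by adjusted p at any fold. The lists had 0 calls under both of their alternatives. The dim kidney arrays limit the kidney values, where their COIL signal was 38.2 and 39.9 times its local background.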
